A study of Mus musculus with 24 samples.

Results

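Has1 and Ptx3 are a pair of genes of the hyaluronan matrix, and they were followed here in the left ventricle of mice after a sham operation on the heart. They were selected on their measured values, because both responded by 45 min, and they make up 2 of the 63758 transcripts in the counts (Has1 as uc008apr.2 and Ptx3 as uc008pla.1). The study asked what the surgery alone does to the myocardium, and mRNA was sequenced from 24 mice, with 8 mice at each of 3 times (0 min, 45 min and 24 h). Each mouse gave 1 sample, and different mice were used at each time. All mice were male C57BL/6J (given as C57BL/6 in the sample labels), aged 8 to 12 weeks. All were anesthetized with pentobarbital, given buprenorphine, ventilated and opened at the left side of the chest, and a suture was passed around the left anterior descending artery without being tied. The study also lists removal of the epicardium as part of the intervention. In the group at 24 h the chest was closed after the 45 min of surgery and the mice were kept until the next day. The 0 min mice, which had also been anesthetized and opened, were the baseline, and mice without surgery were not analysed here. Surgeon and library pool varied among the mice and were not used here.

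Hyaluronan is a long, unbranched sugar polymer of the extracellular matrix that is made at the plasma membrane by the hyaluronan synthases and pushed out of the cell as it grows. Has1 and Has2 encode synthases of this family, and they use UDP-glucuronic acid and UDP-N-acetylglucosamine as substrates. Ptx3 encodes pentraxin 3, a secreted long pentraxin of innate immunity that is released by several cell types on inflammatory stimulation. Together with the protein encoded by Tnfaip6 (TSG-6) and the heavy chains of the inter-alpha-trypsin inhibitors, pentraxin 3 cross-links hyaluronan into a matrix, which is best known from the cumulus around the ovulated oocyte. In the heart, hyaluronan is part of the connective tissue and of the covering layers, and it accumulates after injury.

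In the GENCODE M21 annotation of GRCm38, Has1 lies on the minus strand of chromosome 17, from 17843323 to 17855205, and its transcript has 5 exons with 2095 bases. Ptx3 lies on the plus strand of chromosome 3, from 66219910 to 66225805, with 3 exons and 1898 bases. The upstream regions of both genes are shown because both genes had higher counts at 45 min than at 0 min, and they are the 250 bases before the RefSeq start (GRCm38.p6), printed on the strand of the gene at chr17:17855189-17855438 for Has1 and at chr3:66219637-66219886 for Ptx3. Capitals mark the bases of 6 searched motifs.
Has1: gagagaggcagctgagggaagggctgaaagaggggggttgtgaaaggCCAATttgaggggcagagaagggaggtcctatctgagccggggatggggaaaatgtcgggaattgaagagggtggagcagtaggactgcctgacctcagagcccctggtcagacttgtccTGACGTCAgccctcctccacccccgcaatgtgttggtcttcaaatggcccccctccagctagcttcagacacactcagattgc
Ptx3: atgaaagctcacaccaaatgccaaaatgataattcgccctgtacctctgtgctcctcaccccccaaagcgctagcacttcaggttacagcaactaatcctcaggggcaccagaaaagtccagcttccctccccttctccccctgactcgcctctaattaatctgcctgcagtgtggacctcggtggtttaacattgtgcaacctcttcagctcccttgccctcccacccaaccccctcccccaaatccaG

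The motifs were a cAMP response element (TGACGTCA), an AP-1 site (TGANTCA), an NF-kB site, a STAT site (TTCNNNGAA), a TATA box (TATAAA) and a CCAAT box (CCAAT), searched on both strands in a window of 300 bases that adds 50 bases after the start. The Has1 window held a cAMP response element at -83 to -76, a motif found in 1.79% of the 32851 promoters of the same length, and a CCAAT box at -203 to -199, found in 37.4%. The Ptx3 window held an NF-kB site from -1 to 9 relative to the RefSeq start, overlapped by another match shifted by 1 base, and this motif was found in 8.46% of promoters. That site is shown with its flanks at chr3:66219876-66219905.
Ptx3 site: cccaaatccaGGGGAACTCCCtcgcgctgt
The site lies upstream of the GENCODE start of Ptx3, which is further downstream than that of RefSeq. Neither window held the AP-1 site (7.81% of promoters), the STAT site (8.30%) or the TATA box (13.6%) in these letters. Such matches describe the sequence and were not tested for any role.

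Total counts per sample ranged from 9887957 to 14091629, and the number of transcripts detected from 12972 to 18865, with the 3 lowest numbers of all samples in replicates 6, 7 and 8 at 45 min. On the first principal component of the 500 most variable tested transcripts (51.4% of variance), these 3 mice scored 22.4 to 38.5, and replicate 5 at 0 min and replicate 4 at 24 h stood with them at 21.2 and 24.3, apart from their groups. On the second component (24.4%), replicate 8 at 24 h, at 1.78, stood above the rest of its group. Without the 3 mice at 45 min, the log2 fold change of Ptx3 from 0 to 45 min was 2.82 instead of 3.07 and the ratio of summed Has1 counts 66.3 instead of 66.7. Without both other mice, the change of Ptx3 from 0 min to 24 h was 3.63 instead of 3.49, and Has1 at 24 h kept an adjusted p of 2.97e-05 (edgeR). Of the 27661 transcripts with at least 1 count, 8940 passed the filter on low counts and were tested, both members among them. Levels are given as CPM, the counts in a library scaled to a common total by TMM over the tested transcripts. The labelled tissue fitted its markers, since the summed level of 3 cardiomyocyte transcripts (Actc1, Mybpc3 and Actn2) was between 5468 and 27485 CPM in every sample. In bulk tissue, fewer cells of a type and less RNA per cell cannot be told apart. Symbols were available only for the 1209 transcripts that the study selected as changing over time in these samples, so every gene list below is limited to such transcripts, and its count is not independent evidence of a change.

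Has1 was almost undetected at 0 min and was read in every mouse at 45 min and at 24 h. At 0 min its counts were 1, 0, 1, 0, 0, 0, 0 and 0 in replicates 1 to 8, or 2 counts in all. At 45 min the counts were 9, 41, 15, 7, 19, 4, 3 and 34 in the same order, or 132 in all. At 24 h they were 30, 10, 12, 6, 39, 16, 45 and 13, or 171 in all. No mouse at either later time was as low as any mouse at 0 min, and 7 of 8 mice at 45 min and 8 of 8 at 24 h had more than 3 counts. In the mice at 0 min with no Has1 count, the 95% exact counting interval reached at most 0.361 CPM, which is above the lowest level at 45 min (0.313 CPM in replicate 7). In replicates 1 and 3 at 0 min, with 1 count each, it reached 0.444 and 0.511 CPM. The latter is also above replicate 6 at 45 min, at 0.455 CPM. The separation of replicates 6 and 7 at 45 min thus rested on 4 and 3 counts.

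The level of Has1 was 0.0214 ± 0.0398 CPM at 0 min (SD, n = 8). At 45 min it was 1.47 ± 1.26 CPM (SD, n = 8), from 0.313 in replicate 7 through a median of 1.05 to 3.80 in replicate 8. At 24 h it was 1.502 ± 0.834 CPM (SD, n = 8), from 0.519 in replicate 4 through a median of 1.19 to 2.63 in replicate 7. The means of both later groups were thus close, while the mice at 45 min were spread more widely. Scaled by depth, the summed counts were 66.7 times those of 0 min at 45 min, with a 95% counting interval of 18.1 to 557. At 24 h the ratio was 70.8, with an interval of 19.3 to 589. Both intervals are wide because the baseline held only 2 counts, they cover counting error only, and without replicate 3 at 0 min, which leaves 1 count there, the ratio at 45 min was 117.

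By the fitted fold change, the rise of Has1 from 0 to 45 min ranked 1 among all transcripts tested. Has1 and Ptx3 were both among the 43 transcripts (0.481%) that were higher at 45 min and among the 21 (0.235%) with every mouse at 45 min above every mouse at 0 min, and this is the comparison by which they had been selected. From 0 min to 24 h, a comparison that shares the 0 min mice with it, Has1 was higher at an adjusted p of 1.07e-05 (quasi-likelihood F test of edgeR, adjusted by Benjamini-Hochberg), with 8 of 8 mice at 24 h above the highest at 0 min. Has1 passed the filter on low counts only through the mice at 45 min and 24 h, where it is high, and without the 45 min mice in the fit it did not pass, so this p is a description of a transcript admitted by its high groups. Of all transcripts tested, 4.44% were called higher at 24 h and 0.996% had no overlap in that direction. Between 45 min and 24 h, a comparison that shares the 45 min mice with the selection, the log2 fold change of Has1 was 0.05 ± 0.42 (SE), with a 95% interval of -0.83 to 0.92 and an adjusted p of 0.956 by the same edgeR test. The groups overlapped, and the sign of this difference turned when replicate 1, 3, 4, 6 or 7 at 45 min or replicate 1, 5 or 7 at 24 h was left out, with values from -0.16 to 0.38 over all mice left out in turn.

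Ptx3, the pentraxin, was already detected at 0 min and was several times higher at both later times. Its counts were 2, 6, 4, 12, 10, 7, 4 and 6 in replicates 1 to 8 at 0 min. They were 29, 32, 80, 37, 76, 21, 95 and 57 at 45 min. They were 96, 79, 134, 69, 153, 54, 122 and 18 at 24 h. Every mouse at 45 min and at 24 h had more counts than the highest mouse at 0 min, and replicate 8 at 24 h, with 18 counts, was the lowest of the later mice.

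The level of Ptx3 was 0.584 ± 0.314 CPM at 0 min (SD, n = 8), with a lowest value of 0.159, a median of 0.536 and a highest value of 1.10. At 45 min it was 4.95 ± 2.71 CPM (SD, n = 8), from 2.28 through a median of 4.69 to 9.90 in replicate 7. At 24 h it was 6.58 ± 2.76 CPM (SD, n = 8), from 1.46 in replicate 8 through a median of 6.96 to 10.1 in replicate 5. The later groups lay wholly above 0 min and overlapped each other over most of their range. The fitted rise from 0 to 45 min was 3.07 ± 0.40 on the log2 scale (SE), or 8.40-fold, and ranked 5 among all transcripts tested. At 24 h the log2 fold change against 0 min was 3.49 ± 0.40 (SE, 95% interval 2.66 to 4.31, adjusted p = 1.92e-06 by edgeR). In this comparison 8 of 8 mice were above the highest at 0 min, and the rise had a rank of 19 against a rank of 5 for Has1. Ptx3 too passed the filter on low counts through the later mice, as its median at 0 min was 6 counts against a minimum of 10. This p is therefore also a description of a transcript admitted by its high groups. Between 45 min and 24 h the log2 fold change was 0.42 ± 0.33 (SE; 95% interval -0.27 to 1.10; adjusted p = 0.457 by edgeR), and 6 of 8 mice at 24 h were above the median at 45 min. Neither member therefore differed between 45 min and 24 h by more than the spread between mice, and the intervals leave room for changes in both directions.

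**Figure D1:**
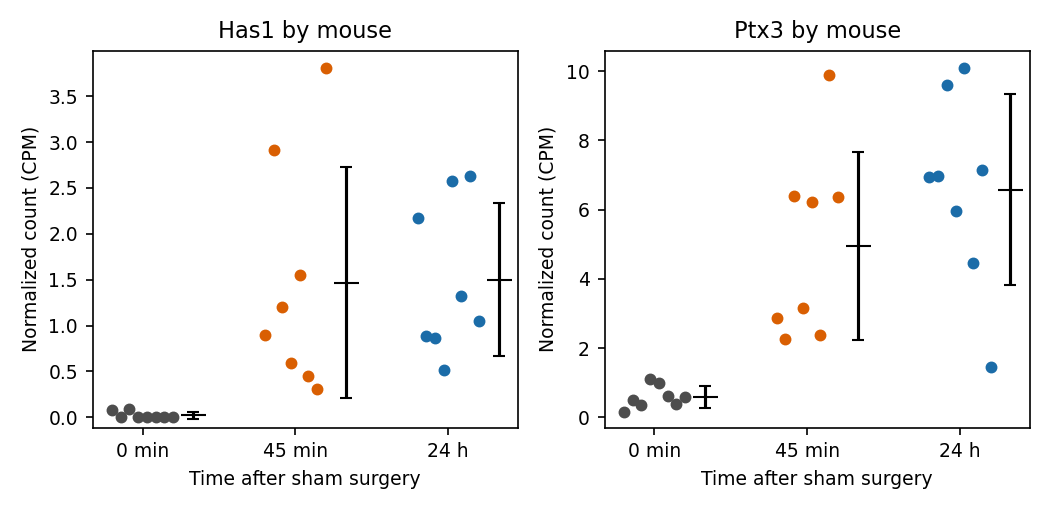
Normalized counts (CPM, vertical axis) of Has1 and Ptx3 in each of 8 mice per time (points in the order of replicates 1 to 8), with the mean and SD as bars. For both genes all mice at 45 min and 24 h sit above all mice at 0 min, and the 45 min and 24 h mice overlap.

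The mice of 1 time differed more than counting error would give. The chi-square of the counts divided by its degrees of freedom, which is near 1 for counting error alone, was 10.8 for Has1 and 15.8 for Ptx3 at 45 min. At 24 h it was 6.17 for Has1 and 14.9 for Ptx3. The coefficient of variation of Has1 was 0.858 at 45 min and 0.556 at 24 h, against 0.548 and 0.419 for Ptx3. The highest mouse at 45 min was 12.2 times the lowest for Has1 and 4.35 times the lowest for Ptx3.

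At 45 min the mice with the highest Has1 were not those with the highest Ptx3. Replicate 7 had the lowest Has1 (3 counts) and the highest Ptx3 (95 counts), which makes 31.7 Ptx3 counts for each Has1 count, not scaled for length. Replicate 2 had the most Has1 counts (41) and 32 Ptx3 counts, a ratio of 0.780, and it was the only mouse after 0 min with fewer Ptx3 than Has1 counts. At 24 h the ratio ranged from 1.38 in replicate 8 to 11.5 in replicate 4, and replicate 5, with the highest Ptx3 (10.1 CPM), had a Has1 level of 2.57 CPM, near the highest. Across the 8 mice at 45 min, the correlation of log2 levels was -0.0339 by Pearson (exact permutation p = 0.931, adjusted 0.931) and -0.143 by Spearman (exact permutation p = 0.752, adjusted 0.877). Without replicates 2 and 7, which lay farthest from the median of Ptx3, Pearson's r was 0.799, so that the value over all mice rested on these samples. At 24 h Pearson's r was 0.270 (exact permutation p = 0.574, adjusted 0.804) and Spearman's rho 0.286 (exact permutation p = 0.501, adjusted 0.788), and r was 0.344 without replicates 6 and 8. These p values are two-sided and were adjusted over 14 relations of the members within the groups.

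**Figure D2:**
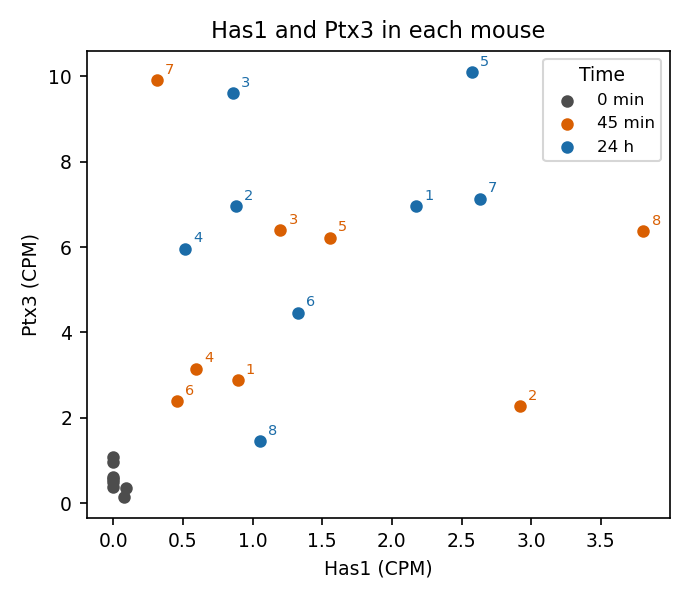
Ptx3 level against Has1 level (both in CPM) in each of the 24 mice, with replicate numbers beside the points at 45 min and 24 h. The 0 min mice lie near the origin, and 45 min replicates 2 and 7 lie at opposite corners of their group.

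Has2, the synthase of the same family that is needed for heart development, followed another course. Its level was 0.849 ± 0.452 CPM at 0 min (lowest 0.366, median 0.841, highest 1.76) and 0.548 ± 0.243 CPM at 45 min (lowest 0.228, median 0.561, highest 0.937). At 24 h it was 2.60 ± 1.24 CPM (SD, n = 8 in each group), from 1.09 through a median of 2.54 to 4.91. The mice at 24 h were all above those at 45 min, whereas the 0 and 45 min mice overlapped. How many of all transcripts separated 24 h from 45 min in this way was not counted, and 4.59% were called higher. The log2 fold change of Has2 was -0.59 ± 0.37 from 0 to 45 min (SE; adjusted p = 0.952 by edgeR) and 2.203 ± 0.35 from 45 min to 24 h (adjusted p = 0.000134 by edgeR). Against 0 min it was 1.61 ± 0.33 at 24 h (SE; adjusted p = 0.00199 by edgeR). Has2 passed the filter on low counts through the mice at 24 h. Its median was 9 counts at 0 min and 5.5 at 45 min, against a minimum of 10. The p values of Has2 at 24 h are therefore also a description of a transcript admitted by its high group.

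Per length of transcript, Has1 stood at 0.0102 CPM per kb at 0 min, against 0.200 for Has2. At 45 min it stood at 0.700, against 0.129 for Has2, and at 24 h at 0.717, against 0.613. The share of Has1 in the length-scaled counts of both synthases was 4.90% ± 9.20 at 0 min (SD, n = 8), 77.2% ± 16.2 at 45 min and 52.3% ± 15.1 at 24 h. It reached from 50.3% in replicate 7 to 95.8% in replicate 8 at 45 min, and from 33.6% in replicate 2 to 80.2% in replicate 1 at 24 h. The share was above 50% in all mice at 45 min only after length scaling, since replicate 4 had 7 Has1 and 11 Has2 counts and replicate 7 had 3 and 6. From 45 min to 24 h the mean share changed by -24.9 percentage points, with 7 of 8 mice at 24 h below the median at 45 min. Leaving out single mice gave differences of -28.9 to -22.3 points. No test is given for this change, because Has1 was selected on its 45 min values. At 0 min, 6 of 8 mice at 0 min had a share of 0, as no Has1 read was counted there.

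**Figure D3:**
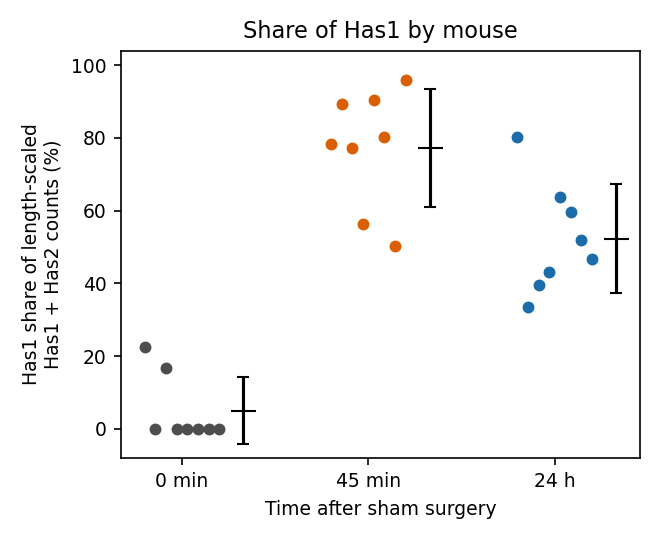
Share of Has1 (%, vertical axis) in the length-scaled counts of Has1 and Has2 in each of 8 mice per time, with the mean and SD as bars. All mice at 45 min are at 50.3% or more, and the mice at 24 h range from 33.6% to 80.2%.

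Of 38 genes of hyaluronan synthesis, cross-linking, binding, reception and breakdown that were looked for, 10 had an identifier, and all 10 were tested. All 10 come from the study's list of transcripts changing in these samples. Their counts are therefore not independent evidence of a change, and the shares of all transcripts tested do not make them so. At 45 min the 2 members were the only ones called higher, none was lower and 8 had no call, where 0.481% of all transcripts tested were called higher and 0.246% lower. The members had been selected on this comparison, so their calls were given in advance. Without them, 0 of 8 were called higher. At 24 h against 0 min, 8 of 10 were higher and 1 was lower, or 6 of 8 higher without the members, where 4.44% of all transcripts tested were higher and 3.24% lower. At 24 h against 45 min, 4 of 10 were higher and 1 was lower (3 in all without replicate 2 at 24 h), where 4.59% of all were higher and 4.51% lower. The median log2 fold change of the 10 genes was 0.22, 0.98 and 0.51 in these 3 comparisons, and that of all transcripts tested was 0.01, 0.00 and 0.03. The comparisons share mice with each other.

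Among the genes that supply the synthases with substrate, Ugdh and Gfpt2 were higher at 24 h. Ugdh, which makes UDP-glucuronic acid, averaged 13.8 ± 1.86, 13.03 ± 2.13 and 23.8 ± 5.29 CPM at the 3 successive times (SD, n = 8), and all mice at 24 h were above all others. Of all transcripts tested, 0.996% had every mouse at 24 h above every mouse at 0 min, and the share against 45 min was not counted. Its log2 fold change was -0.08 ± 0.14 from 0 to 45 min (SE; adjusted p = 0.954 by edgeR) and 0.87 ± 0.14 from 45 min to 24 h (adjusted p = 0.000168 by edgeR). Gfpt2, which catalyzes the first step of the hexosamine pathway, had a log2 fold change of 0.22 ± 0.24 at 45 min (SE; adjusted p = 0.952 by edgeR) and of 1.03 ± 0.24 at 24 h against 0 min (adjusted p = 0.00751 by edgeR). Against 45 min the change of Gfpt2 was 0.81 ± 0.24 (SE; adjusted p = 0.0359 by edgeR), and the groups overlapped. Ugp2, which makes UDP-glucose, passed no test, with -0.45 ± 0.25 at 24 h against 0 min (SE; adjusted p = 0.362 by edgeR).

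Tnfaip6, the partner of pentraxin 3 in cross-linking, was at 0.809 ± 0.473 CPM at 0 min (lowest 0.239, median 0.702, highest 1.76), 1.74 ± 0.599 at 45 min (lowest 0.794, median 1.66, highest 2.71) and 2.63 ± 1.13 at 24 h (lowest 1.56, median 2.19, highest 4.68; SD, n = 8). All 8 mice at 45 min were above the median at 0 min but only 2 were above its highest mouse. The log2 fold change was 1.11 ± 0.33 at 45 min (SE; adjusted p = 0.180 by edgeR) and 1.71 ± 0.32 at 24 h against 0 min (adjusted p = 0.000822 by edgeR). From 45 min to 24 h it was 0.60 ± 0.30 (SE; adjusted p = 0.220 by edgeR). Tnfaip6 too passed the filter on low counts through the later mice, as its median at 0 min was 8 counts against a minimum of 10. Its p values against 0 min are therefore a description as well. Itih5, which encodes an inter-alpha-trypsin inhibitor heavy chain, went the other way, and averaged 16.1 ± 4.03, 14.7 ± 3.92 and 6.05 ± 1.34 CPM at the 3 successive times (SD, n = 8). At 24 h it had changed by -1.42 ± 0.19 on the log2 scale against 0 min (SE, adjusted p = 1.4e-05 by edgeR), and 8 of 8 mice at 24 h were below the lowest at 0 min. Of all transcripts tested, 3.24% were called lower in that comparison, and the share without overlap in that direction was not counted.

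The hyaluronan receptors Lyve1, of lymphatic endothelium and some resident macrophages, and Layn, layilin, were also higher at 24 h than at 0 min. Lyve1 had a log2 fold change of 0.49 ± 0.16 at 45 min (SE; adjusted p = 0.283 by edgeR) and 0.78 ± 0.16 at 24 h (adjusted p = 0.00184 by edgeR). Layn had 0.21 ± 0.19 at 45 min (SE; adjusted p = 0.952 by edgeR) and 0.94 ± 0.18 at 24 h (adjusted p = 0.00126 by edgeR). Only the change of Layn passed the test between 45 min and 24 h, at 0.73 ± 0.18 (SE; adjusted p = 0.0110 by edgeR), against 0.29 ± 0.16 for Lyve1 (adjusted p = 0.266 by edgeR), and the difference between both genes was not tested.

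**Figure D4:**
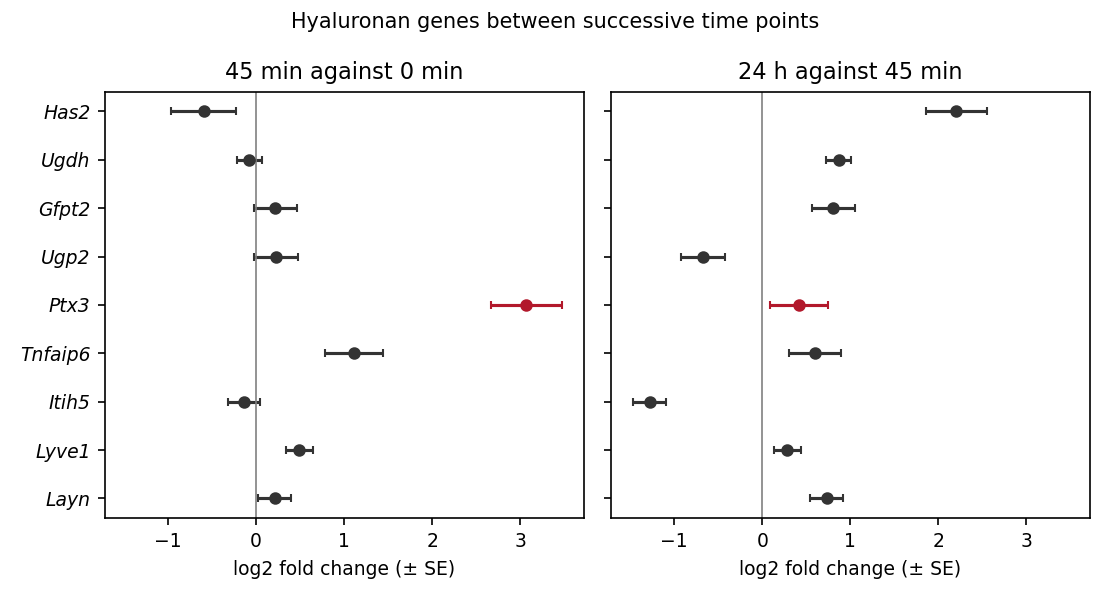
Log2 fold changes with SE (horizontal axis) of 9 hyaluronan genes from 0 to 45 min (left) and from 45 min to 24 h (right), with Ptx3 in red. Ptx3 stands at 3.07 on the left and 0.42 on the right, whereas Has2 stands at -0.59 and 2.203. Has1 is not drawn because its 0 min level rests on 2 counts.

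The genes of the cumulus matrix were compared too, since Has2, Ptx3 and Tnfaip6 belong to them. Of 7 such genes 5 had an identifier and 4 were tested, and these 4 were all higher at 24 h than at 0 min (3 of 3 without Ptx3), where 4.44% of all transcripts tested were higher. These genes too come from the study's list of changed transcripts, so this count is not independent evidence of a change. Ptgs2, which encodes the inducible cyclooxygenase, had a log2 fold change of 1.65 ± 0.41 at 45 min (SE; adjusted p = 0.0627 by edgeR) and 1.78 ± 0.41 at 24 h (adjusted p = 0.00584 by edgeR). Ereg, which encodes the growth factor epiregulin, had too few counts to be tested. It had 7 counts in all at 0 min and 10 at 45 min, and 105 at 24 h, where single mice had 4 to 24 counts.

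Ptx3 and Has1 shared 4 of the 20 transcripts closest to each over the 24 mice (20% of each list): D730005E14Rik, Cxcr2, Mt2 and Lcn2. Likeness was measured by Spearman's rho of log2 CPM among 8397 transcripts with a mean of at least 10 counts, and as all 3 times enter, it reflects the shared change over time as well as differences between mice. For Has1 the 5 closest genes with a symbol were Ifi205 (rho = 0.864), AI607873 (0.846), Mylip (0.822), D730005E14Rik (0.802) and Glul (0.767). Ifi205 belongs to a family of interferon-inducible genes with close copies, so its counts are uncertain, Mylip encodes a ubiquitin ligase that acts on the LDL receptor, and Glul encodes glutamine synthetase. After the mean of each time was subtracted, rho with Has1 was between 0.387 (D730005E14Rik) and 0.575 (Ifi205). D730005E14Rik had a higher rho with Ptx3, at 0.818, than with Has1.

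For Ptx3 the closest were Ccl7 (rho = 0.870), Ptgs2 (0.860), Selp (0.851), Ccl2 (0.847) and Hmox1 (0.846). Ccl7 and Ccl2 encode chemokines that attract monocytes, Selp encodes the adhesion molecule P-selectin, and Hmox1 encodes heme oxygenase 1. Centred by time, rho was between 0.310 (Ccl2) and 0.572 (Ptgs2), and that of Tnfaip6, at rank 15 over all mice with 0.818, was 0.605. Ptx3 came at rank 20 for Has1, with a rho of 0.668 that fell to 0.0758 when centred by time, and Has1 came at rank 88 for Ptx3. Of the 20 transcripts closest to each, 16 had a symbol for Has1 and 19 for Ptx3.

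Those neighbors were themselves unlike in their course. Mylip averaged 20.5 ± 3.80, 40.6 ± 7.77 and 34.5 ± 7.31 CPM at the 3 successive times (SD, n = 8), and changed by 0.98 ± 0.15 on the log2 scale at 45 min (SE; adjusted p = 0.000462 by edgeR) and -0.23 ± 0.15 from 45 min to 24 h (adjusted p = 0.344 by edgeR). Hmox1 was at 12.2 ± 3.68, 26.0 ± 9.84 and 92.9 ± 56.3 CPM at the same times, and its log2 fold change from 45 min to 24 h was 1.84 ± 0.33 (SE; adjusted p = 0.000477 by edgeR). None of the 5 neighbors of Has1 passed the test between 45 min and 24 h, while 4 of the 5 neighbors of Ptx3 (Ccl7, Selp, Ccl2 and Hmox1) were higher at 24 h. Of all transcripts tested, 4.59% were higher and 4.51% lower in that comparison. These genes were ranked on the same samples, so the counts describe the ranking.

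The early cytokine and NF-kB response genes give the setting of the rise at 45 min. Of 12 tested, 7 were higher at 45 min than at 0 min, where 0.481% of all transcripts tested were, led by Cxcl1, a neutrophil chemokine, at 3.75 ± 0.33 (log2, SE; adjusted p = 1.84e-07 by edgeR) and Socs3, a feedback inhibitor of cytokine signaling, at 3.62 ± 0.45 (adjusted p = 3.08e-05 by edgeR). From 45 min to 24 h, 5 of these 12 were lower and 3 were higher, where 4.51% and 4.59% of all transcripts tested were. All 12 come from the study's list of changed transcripts, so both counts are not independent evidence of a change. Cxcl1 fell by 1.71 on the log2 scale (SE 0.30; adjusted p = 0.000402 by edgeR), and Ccl7 rose by 1.70 (SE 0.43; adjusted p = 0.0120 by edgeR). Has1 and Ptx3, at 0.05 and 0.42, were in neither direction past the test.

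Markers of most other cell types were called mainly at 24 h. The endothelial sum was already lower at 45 min, with medians of 100.4, 62.0 and 77.8 CPM at the 3 successive times. Of all transcripts tested, 0.481% were higher and 0.246% lower at 45 min than at 0 min. At 24 h 4.44% were higher and 3.24% lower than at 0 min, and 4.59% were higher than at 45 min. All markers counted here come from the study's list of changed transcripts, so their counts are not independent evidence of a change. Of 6 mesothelial and epicardial transcripts tested, none passed the test at 45 min and all 6 were higher at 24 h than at either earlier time, led by Krt8 and Krt7, keratins of such lining cells, at 3.87 ± 0.51 and 3.03 ± 0.59 against 0 min (log2, SE; adjusted p = 1.045e-05 and 0.00120 by edgeR). The summed level of this list reached from 13.05 to 26.03 CPM at 0 min, from 9.62 to 33.1 at 45 min and from 48.6 to 102 at 24 h. Of 4 neutrophil transcripts, none was called at 45 min and 4 were higher at 24 h against 0 min, with sums of 1.41 to 7.92, 1.69 to 20.3 and 7.67 to 55.2 CPM at the 3 times. The median log2 fold change of these 4 was already 1.65 at 45 min. Mmp8, a collagenase of neutrophils, had 2.73 (SE 0.84, adjusted p = 0.218 by edgeR) and rank 7 among all rises. For Mmp8 3 of 8 mice were above the highest at 0 min, and the highest mouse held 51 of the 95 counts. Cxcr2, a chemokine receptor, had 2.29 (SE 0.63, adjusted p = 0.119 by edgeR) and rank 9, with 6 of 8 mice above the highest at 0 min. Mmp9 had 1.01 (SE 0.45, adjusted p = 0.757 by edgeR) and Cd177 had 0.53 (SE 0.84, adjusted p = 0.952 by edgeR). At 0 min the median count was 6 for Krt8 and for Krt7, 1 for Mmp8, 2 for Cxcr2 and 1.5 for Cd177. With a minimum of 10, these 5 passed the filter on low counts through later mice. Their p values are therefore a description of transcripts admitted by their high groups. Of 8 monocyte and macrophage transcripts, none was called at 45 min and 8 were higher at 24 h, with sums of 39.5 to 67.2, 37.3 to 73.4 and 75.6 to 241 CPM. Of 5 fibroblast transcripts, none was called at 45 min, and 2 were higher and 1 lower at 24 h, with sums of 481 to 769, 433 to 662 and 437 to 1299 CPM. Of 4 endothelial transcripts, 1 (Bcl6b) was lower at 45 min, and 1 was higher and 2 were lower at 24 h against 0 min, with sums of 78.1 to 117, 56.3 to 77.4 and 69.5 to 87.8 CPM, so that the mice at 45 min lay below those at 0 min. Of 3 cardiomyocyte transcripts, none was called at 45 min and 2 were lower at 24 h, with sums of 14580 to 22216, 15477 to 27485 and 5468 to 10204 CPM. Most of this sum was Actc1, with a mean of 14854 CPM at 0 min and 5717 at 24 h. Mybpc3 was also lower at 24 h, at -0.81 ± 0.17 against 0 min (log2, SE; adjusted p = 0.00265 by edgeR). Actn2 was not called, at -0.20 ± 0.11 (adjusted p = 0.346 by edgeR). No marker with an identifier was at 0 in all mice of a time. The part of these cells in the levels of Has1 and Ptx3 was not tested.

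Within the groups, the level of Ptx3 ran highest with the neutrophil sum at 45 min, with Pearson's r of 0.783 (exact permutation p = 0.0135, adjusted 0.118) and Spearman's rho of 0.857 (exact permutation p = 0.0107, adjusted 0.150). Without replicates 1 and 7, which lay farthest from the median of the neutrophil sum, r was 0.812. Has1 had an r of -0.0617 with the same sum (exact permutation p = 0.888, adjusted 0.931) and a rho of -0.0238 (exact permutation p = 0.977, adjusted 0.977), and its r was 0.464 without these mice. At 24 h, Has1 ran with the number of transcripts detected, with an r of 0.773 (exact permutation p = 0.0168, adjusted 0.118) and a rho of 0.683 (exact permutation p = 0.0701, adjusted 0.245), and r was 0.631 without replicates 4 and 8. Ptx3 had an r of 0.481 (exact permutation p = 0.214, adjusted 0.599) and a rho of 0.707 (exact permutation p = 0.0578, adjusted 0.245) with the same number at 24 h, and r was 0.589 without these mice. With the mesothelial and epicardial sum at 24 h, Ptx3 had an r of 0.723 (exact permutation p = 0.0466, adjusted 0.217) and a rho of 0.643 (exact permutation p = 0.0962, adjusted 0.269), and r was 0.463 without replicates 5 and 8. None of the 14 relations passed the adjustment.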

How the data were processed

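Left ventricular mRNA of 24 mice was sequenced from directional libraries. The authors trimmed the reads with cutadapt 1.9.1, mapped them to mm10 with TopHat2 2.1.0 and Bowtie2 2.2.9, and counted them with HTSeq 0.6.0, per the submitters' processing notes. The deposited values are raw counts per UCSC transcript, without normalization. The counting mode, strand setting and transcript release are not given in the sources used here. A row without a name (1) was left out.

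The main analysis used edgeR 4.0.16 under R 4.3.3. Transcripts were filtered with filterByExpr (minimum count 10), scaled by TMM and fitted with a quasi-likelihood model of time over all 24 samples, with Benjamini-Hochberg adjustment over 8940 transcripts and a threshold of 0.05. For log2 CPM, 0.5 was added. Alternatives used DESeq2 1.42.0 and limma 3.58.1. Relations were tested by exact permutation. Depth sets the precision. The intervals of the Has1 count ratios and of the levels of single mice cover counting error only. Those of the log2 fold changes also cover the spread between mice. The ratio of summed Has1 counts with its counting interval replaced a planned bound against 3 counts.

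The members, lists and tests were chosen with earlier results of these data known. Besides both members, the genes named were all with an identifier in the hyaluronan and cumulus lists, the 5 closest to each member, and the largest changes past the threshold of other lists. Symbols came from the study's list of changed transcripts. Lists of complement genes (4 of 7 transcripts tested higher at 24 h against 0 min) and of other matrix genes (6 of 11 higher, 1 lower) were also counted. Of all transcripts tested, 4.44% were higher and 3.24% lower in that comparison. Same-numbered mice did not deviate together, so replicate numbers were not treated as pairs.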

Additional observations from a re-analysis of the deposited data

Results flagged for a closer look

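In 12 hyaluronan and cumulus genes at 3 times, 36 groups of 8 mice were searched for a highest or lowest mouse that stood far from the rest on the log2 scale (by Dixon's critical value at 95% for the gap over the range), and 3 were found, where chance gives about 1 in 20 groups. Ptx3 in replicate 8 at 24 h was at 1.46 CPM, and the next mouse was at 4.47 CPM. In that mouse the neutrophil sum was 8.74 CPM. Its monocyte and macrophage sum (75.6 CPM) and its mesothelial and epicardial sum (48.6 CPM) were each the lowest of the group. Without it, the log2 fold change of Ptx3 was 3.58 from 0 min to 24 h (adjusted p = 2.41e-07 by edgeR) and 0.52 from 45 min to 24 h (adjusted p = 0.331 by edgeR). Gfpt2 in replicate 1 at 45 min was at 16.6 CPM, and the next mouse was at 30.8 CPM. Layn in the same mouse was at 3.08 CPM, and the next was at 4.63 CPM. This mouse had the lowest TMM factor of all, at 0.717.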

How the results depend on the processing

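The rise of Ptx3 from 0 min to 24 h was between 2.62 and 3.63 on the log2 scale over 13 alternatives and between 3.31 and 3.66 when each mouse was left out, and it passed the test in all of them. The adjusted p of Has1 at 24 h against 0 min was between 2.71e-09 and 7.48e-05 over 10 alternatives and between 3.87e-06 and 5.58e-05 without single mice, and its exact permutation p, not adjusted, was 0.000155, the smallest that 12870 splits can give. Has1 did not pass the stricter filter (minimum count 20), nor the filter in the fit of 24 h and 0 min alone, and these gave no value. From 45 min to 24 h, Has1 had no stable sign: the log2 fold change was -0.086 when transcripts detected per sample entered as a covariate (adjusted p = 0.948 by edgeR), and from -0.16 (without 24 h replicate 7) to 0.38 (without 45 min replicate 8) without single mice, with adjusted p between 0.664 and 0.983, and the cause was not tested. That of Ptx3 was between 0.25 and 0.61 without single mice. The ratio of summed Has1 counts at 45 min was between 58.2 and 68.0 over the alternatives and between 54.5 and 117 without single mice. Hyaluronan genes past the threshold numbered 7 to 9 at 24 h against 0 min. Against 45 min they numbered 4 to 6 over the alternatives and 3 to 5 without single mice, with 3 without 24 h replicate 2. Replicate numbers did not pair the mice (13 of 24 same-number correlations were over 0.1, and the own number was best for 3 of 24), and with a replicate block the change of Ptx3 at 24 h against 0 min was 3.46 and that of Has1 from 45 min to 24 h was 0.18. The samples that stood apart and the 3 mice at 45 min with the fewest transcripts detected were left out as alternatives chosen after seeing the data, and changed no call. Low counts of Has1 limit every statement on its size.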
